A study of Homo sapiens with 6 samples.

Results

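The 36 genes described here carry sugar into the cell and through glycolysis and the pentose phosphate pathway, or set the flow at its gates. They were chosen by name and ordered by 18 steps, from sugar uptake to HIF1A, a hypoxia-inducible transcription factor known to act on many of them. They are 36 of the 52992 genes to which transcripts were summed, and all 36 were among the 18514 genes that passed the low-count filter. The samples came from NB4, a human cell line of acute promyelocytic leukemia, in which Cas9 and a doxycycline-inducible single guide RNA (sgRNA) had been introduced. The control sgRNA was directed against lacZ, a bacterial gene, and sg1 and sg5 were directed against ARID1A, whose product is part of SWI/SNF, a complex that remodels chromatin. All 6 samples, control samples included, had received 1 µg/ml doxycycline for 7 days. Per the study, RNA was extracted after 2 more days of culture without doxycycline. Each of the 3 groups (LacZ, sg1 and sg5) held 2 replicates. The labels give LacZ as WT and both sg1 and sg5 as ARID1A-deficient. NB4 is 1 cell line, and no source states that the replicates came from separate cultures, so that the p-values below measure only the spread between these samples.

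Glycolysis splits glucose into pyruvate, with a small yield of ATP and NADH, and lactate dehydrogenase regenerates the NAD+ that the pathway needs. The pentose phosphate pathway leaves glycolysis at glucose 6-phosphate. Its oxidative branch yields NADPH, and its non-oxidative branch links ribose 5-phosphate, a precursor of nucleotides, back to glycolytic intermediates. Several steps are served by isozymes that separate genes encode, and proliferating leukemia cells are known for a high rate of glycolysis.

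Total estimated counts lay between 46131178 and 54843745 per sample, and the lowest count of any of the 36 genes in any sample was 82. CPM denotes estimated counts scaled to the TMM-adjusted library size, and TPM, as deposited, is also scaled by transcript length. On the first principal component of log2 CPM, which held 34.4% of the variance, sg1 replicate 1 and sg5 replicate 2 scored 34.3 and 46.8, whereas the other 4 samples scored from -30.3 to -11.3. No label matches this division, and results that rest on those samples are given with and without them. ARID1A mRNA was 29.6 and 35.1 TPM with the LacZ guide, 38.0 and 36.4 with sg1 and 24.3 and 26.9 with sg5, so that its level does not by itself check the labels. Its adjusted p by edgeR was 0.993 in sg1 and 0.661 in sg5. Of 7 promyelocyte markers 6 passed the filter, with MPO, the granule myeloperoxidase, between 5991 and 7769 TPM, whereas ELANE, neutrophil elastase, lay at or below 0.290 TPM. The summed level of the 7 was 8624 and 9542 TPM in LacZ and 7301 to 8527 TPM in the ARID1A-deficient samples, and 3 of the 6 had all 4 ARID1A-deficient samples below both LacZ samples, where 10.4% of all genes tested did. None of the 6 passed an FDR of 0.1 by edgeR, with 2 at an unadjusted p under 0.05 when sg1 and sg5 were joined against LacZ. Of all genes tested, 7.21% were under 0.05 in that comparison. Of 15 markers of other cell types 14 were matched, and the globin genes HBA1, HBA2 and HBB had no counts in any sample. The summed level of these markers was 35.1 and 30.9 TPM in LacZ, against 44.1 and 44.7 for sg1 and 41.2 and 46.5 for sg5, with CD3D, a T cell gene, at 12.2 to 19.1 TPM and CD79A, a B cell gene, at 6.74 to 15.5 TPM. Of the 15 markers 6 passed the filter, and 3 of these had joined estimates above 0 and 3 below, with a median of 0.04. None of the 6 passed an FDR of 0.1 by edgeR in any comparison. All 4 ARID1A-deficient samples lay above both LacZ samples in 2 of the 6 (9.72% of all genes tested) and below in 0 (10.4%). The part of these markers in the results below was not tested. In such bulk samples fewer cells of a type and less RNA per cell cannot be told apart.

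Levels were first compared between genes in TPM. The 36 genes held between 1.54% and 1.84% of all TPM in a sample. Their mean over 6 samples ranged from 1.78 TPM for HK3 to 3604 TPM for GAPDH. There were 5 genes with a mean of at least 1000 TPM, 11 from 100 to 1000, 15 from 10 to 100 and 5 below 10. The later part of the pathway, from aldolase to lactate dehydrogenase, held the 5 most abundant genes, whereas the entry steps lay lower.

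**Figure D1:**
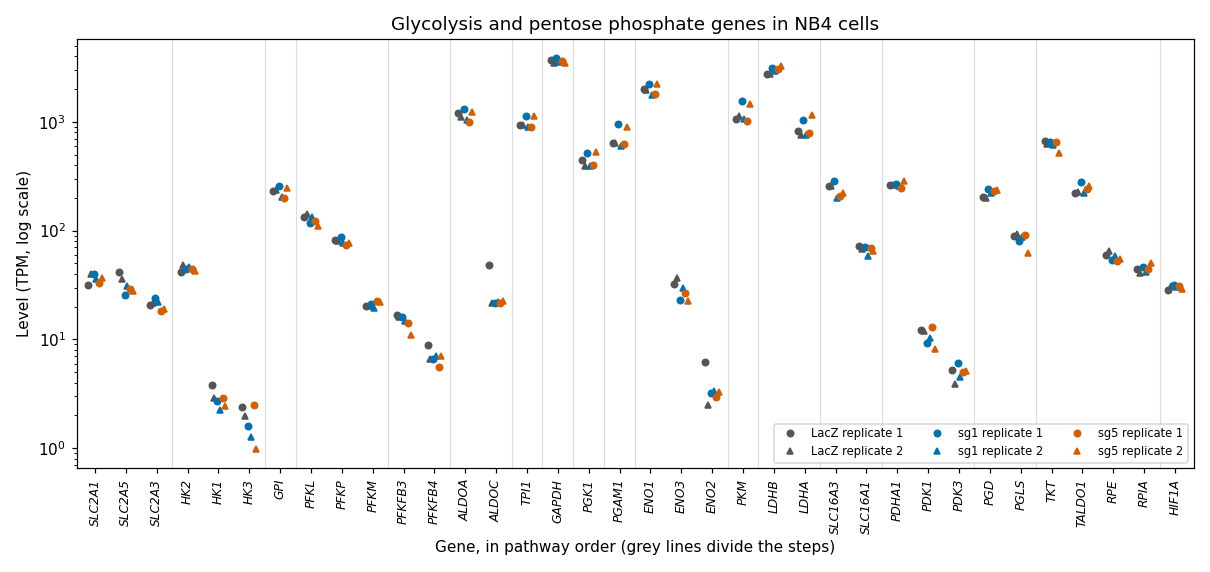
Level of each of the 36 genes in TPM on a log scale, in pathway order, with 1 point per sample (colour, guide; circle, replicate 1; triangle, replicate 2). GAPDH, LDHB and ENO1 stand highest, HK3 stands lowest at a mean of 1.78 TPM, and ALDOC and ENO2 show 1 LacZ sample far above the other.

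At the entry, SLC2A1, the GLUT1 glucose transporter, lay at 31.9 and 40.04 TPM with the LacZ guide, 39.8 and 36.1 with sg1 and 33.0 and 37.1 with sg5. HK2, the inducible hexokinase that traps glucose as its 6-phosphate, lay at 41.5 and 48.0 TPM in LacZ, against 44.2 and 46.7 for sg1 and 44.8 and 42.8 for sg5. GPI, which isomerises that product to fructose 6-phosphate, lay at 231 and 238 TPM with the LacZ guide, 259 and 202 with sg1 and 200 and 248 with sg5. For all 3 genes the range of the ARID1A-deficient samples overlapped the range of LacZ. PFKL, the liver-type subunit of phosphofructokinase, the main control point of glycolysis, lay at 132 and 143 TPM in LacZ, against 119 and 133 for sg1 and 121 and 111 for sg5. PFKFB3, which makes the phosphofructokinase activator fructose 2,6-bisphosphate, lay at 16.6 and 16.2 TPM with the LacZ guide, 15.98 and 14.8 with sg1 and 14.2 and 11.1 with sg5. All 4 ARID1A-deficient samples lay below both LacZ samples for PFKFB3 and the groups overlapped for PFKL.

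From aldolase on, ALDOA, which splits fructose 1,6-bisphosphate, lay at 1215 and 1112 TPM in LacZ, against 1316 and 1050 for sg1 and 1005 and 1220 for sg5. TPI1, which interconverts the triose phosphates, lay at 934 and 932 TPM with the LacZ guide, 1127 and 894 with sg1 and 892 and 1122 with sg5. In both genes sg1 replicate 1 and sg5 replicate 2 were higher than the other replicate of their guide, and the groups overlapped. GAPDH, which oxidises glyceraldehyde 3-phosphate and yields NADH, lay at 3667 and 3500 TPM in LacZ, against 3828 and 3509 for sg1 and 3624 and 3498 for sg5. It was the most even of the 5 genes above 1000 TPM, with its highest sample 1.09 times its lowest. PGK1, the first ATP-forming step, lay at 444 and 392 TPM with the LacZ guide, 517 and 389 with sg1 and 398 and 532 with sg5. PGAM1, the phosphoglycerate mutase, lay at 635 and 633 TPM in LacZ, against 950 and 603 for sg1 and 632 and 894 for sg5. PGK1 and PGAM1 again stood higher in sg1 replicate 1 and sg5 replicate 2 than in the other 4 samples. The level of PGK1 depends on the transcript model, since PGK1-205, annotated as a processed transcript without a coding sequence, held 89.5% to 91.1% of its TPM.

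ENO1, the enolase of most tissues, lay at 1984 and 1956 TPM with the LacZ guide, 2239 and 1753 with sg1 and 1817 and 2235 with sg5. PKM, which makes pyruvate and ATP, lay at 1059 and 1124 TPM in LacZ, against 1544 and 1051 for sg1 and 1028 and 1463 for sg5. Both genes repeated the order of PGAM1 within each guide. LDHB, the lactate dehydrogenase subunit typical of heart, was the second most abundant of the 36 genes, at 2774 and 2754 TPM with the LacZ guide, 3102 and 2915 with sg1 and 3066 and 3282 with sg5. All 4 ARID1A-deficient samples lay above both LacZ samples for LDHB. SLC16A3, the MCT4 lactate exporter, lay at 256 and 259 TPM in LacZ, against 285 and 200 for sg1 and 208 and 222 for sg5. PDHA1, a subunit of the mitochondrial pyruvate dehydrogenase, lay at 261 and 261 TPM with the LacZ guide, 268 and 255 with sg1 and 245 and 288 with sg5. In SLC16A3 sg1 replicate 1 lay above LacZ and the other ARID1A-deficient samples lay below it, and in PDHA1 the groups overlapped.

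In the pentose phosphate pathway, PGD, the NADPH-forming 6-phosphogluconate dehydrogenase, lay at 203 and 198 TPM in LacZ, against 240 and 219 for sg1 and 233 and 237 for sg5. Its lowest ARID1A-deficient sample was above its highest LacZ sample. TKT, the transketolase of the non-oxidative branch, lay at 660 and 620 TPM with the LacZ guide, 647 and 608 with sg1 and 650 and 520 with sg5, with the lowest value in sg5 replicate 2. HIF1A lay at 28.6 and 30.6 TPM in LacZ, against 31.7 and 30.5 for sg1 and 31.1 and 29.2 for sg5, and these groups overlapped. The other 18 genes are accounted for by their isozyme shares and their changes below.

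Isozyme use was described as the share of summed TPM within a step. HK2 held 87.0% to 93.0% of the 3 hexokinase genes, ALDOA 96.2% to 98.4% of the aldolases, and ENO1 98.0% to 98.9% of the enolases. Phosphofructokinase was mixed, with PFKL at 52.0% to 58.8%, PFKP, the platelet type, at 32.8% to 38.7%, and PFKM, the muscle type, at 8.42% to 10.4%. LDHB held 74.0% to 79.6% beside LDHA, the muscle-type subunit, and SLC16A3 held 75.2% to 80.1% beside SLC16A1, the MCT1 transporter. Thus the leading gene of each of these steps was the same in all 6 samples. Sugar uptake differed, because SLC2A5, the GLUT5 fructose transporter, led in LacZ replicate 1 with 44.3% against 33.7% for SLC2A1, whereas SLC2A1 led in the other 5 samples. This rests on the scale, since in LacZ replicate 1 SLC2A1 held 39.6% against 39.3% for SLC2A5 with protein-coding transcripts alone and 39.4% against 26.2% from estimated counts, and so led in all 6 samples. With protein-coding transcripts alone PFKL and PFKP were close in sg5 replicate 2, at 45.6% and 45.7%. SLC2A3, the GLUT3 transporter, held 22.1% to 26.9%, and between 2.77% and 8.39% of its counts and those of its pseudogenes fell on the pseudogenes.

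**Figure D2:**
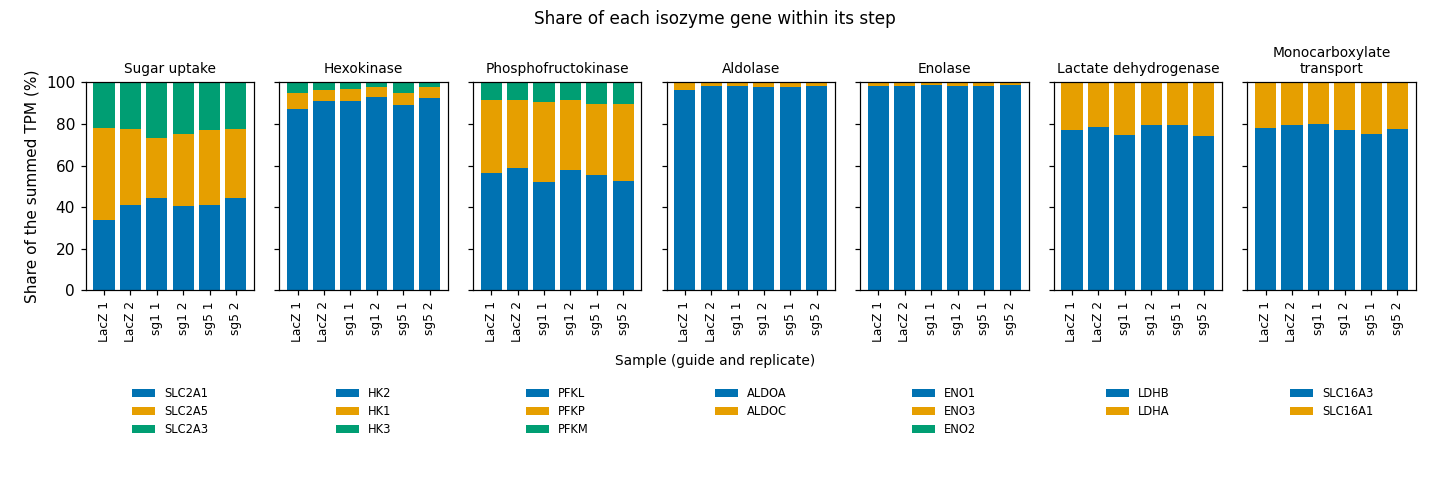
Share of each isozyme gene in the summed TPM of its step (stacked bars to 100%) in each of the 6 samples. HK2, ALDOA and ENO1 fill most of their steps in every sample, whereas sugar uptake and phosphofructokinase are divided among 3 genes.

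In the remaining steps, PFKFB3 held 61.2% to 71.8% beside PFKFB4, another enzyme for fructose 2,6-bisphosphate. PDHA1 held 93.2% to 95.6% beside PDK1 and PDK3, the kinases that switch pyruvate dehydrogenase off. The PDHA1 share was 88.6% to 92.4% with protein-coding transcripts alone and 77.2% to 85.3% from estimated counts. Its leading transcript, PDHA1-210, is annotated as a processed transcript and held 28.7% to 31.4% of PDHA1 TPM. PGD held 68.1% to 79.3% beside PGLS, the 6-phosphogluconolactonase that precedes it. TKT held 58.8% to 67.0% of the non-oxidative branch, followed by TALDO1, the transaldolase, at 22.5% to 29.3%, with RPE, the ribulose phosphate epimerase, and RPIA, the ribose phosphate isomerase, at most 6.80% and 5.66%.

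PKM carries 2 mutually exclusive exons, exon 9 for the M1 form of adult muscle and exon 10 for the M2 form of proliferating cells. They are shown because they decide which pyruvate kinase is made. In the GENCODE 29 transcripts (GRCh38, minus strand) exon 9 lies at chr15:72203022-72203188 and exon 10 at chr15:72202454-72202620, both within coding sequence. Each is 167 bases long, and 105 bases (62.9%) are the same at the same position. Written 5′ to 3′ with capitals at the 62 positions that differ, they are:
PKM exon 9 (M1): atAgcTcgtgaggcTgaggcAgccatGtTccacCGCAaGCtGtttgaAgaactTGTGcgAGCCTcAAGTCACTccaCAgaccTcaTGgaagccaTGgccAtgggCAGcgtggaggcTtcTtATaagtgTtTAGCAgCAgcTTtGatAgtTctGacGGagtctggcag
PKM exon 10 (M2): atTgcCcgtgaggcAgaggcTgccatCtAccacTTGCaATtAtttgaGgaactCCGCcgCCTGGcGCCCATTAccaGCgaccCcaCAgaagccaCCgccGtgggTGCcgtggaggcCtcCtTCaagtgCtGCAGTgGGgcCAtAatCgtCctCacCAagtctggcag

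Transcripts with exon 10 held 90.6% and 90.5% of PKM TPM in LacZ, against 92.5% and 90.3% for sg1 and 90.5% and 91.1% for sg5. Transcripts with exon 9 held between 0.932% and 1.05% in all 6 samples, and transcripts with neither exon held 6.46% to 8.70%. Among protein-coding transcripts alone the exon 10 share was 98.5% to 98.7%. PKM of these cells was therefore annotated almost wholly to the M2 form in every group. Reads that both forms share are divided by the model of the quantifier, and only reads over these exons tell the forms apart.

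To ask whether ARID1A deficiency was accompanied by changes in these genes, each guide, and both joined, were compared with LacZ. No gene of the 36 passed an FDR of 0.1 by edgeR in sg1, in sg5 or in the joined comparison, where 0.0378%, 0.0972% and 0.167% of all genes tested passed. None passed between sg1 and sg5, where 0.0054% of all genes did. At an unadjusted p under 0.05 there were 0, 2, 3 and 0 of the 36 genes in these comparisons, beside 4.15%, 7.47%, 7.21% and 1.38% of all genes tested. DESeq2 called 0 of the 36 genes in each of them, beside 0.742%, 1.35%, 1.81% and 0.027% of the genes to which it gave an adjusted p, and 1, 4, 4 and 0 of the 36 had an unadjusted p under 0.05, beside 3.64%, 6.95%, 6.57% and 0.924% of all genes tested. Comparisons with LacZ share both LacZ samples and so are not independent of each other.

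The median log2 fold change of the 36 genes was 0.05 in sg1, 0.02 in sg5 and 0.04 in the joined comparison, beside 0.002, -0.01 and -0.01 over all genes tested. In the joined comparison 22 genes had estimates above 0 and 14 below, and estimates ranged from -0.81 for HK3 to 0.32 for PGAM1. The 95% interval of 34 of the 36 genes lay within a change of 1 on the log2 scale in either direction, and that of 23 genes within 0.5. The 2 genes whose intervals reached beyond 1 were HK3 (-1.46 to -0.16) and ALDOC (-1.38 to 0.09). Between sg1 and sg5 all 36 intervals lay within 1.

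**Figure D3:**
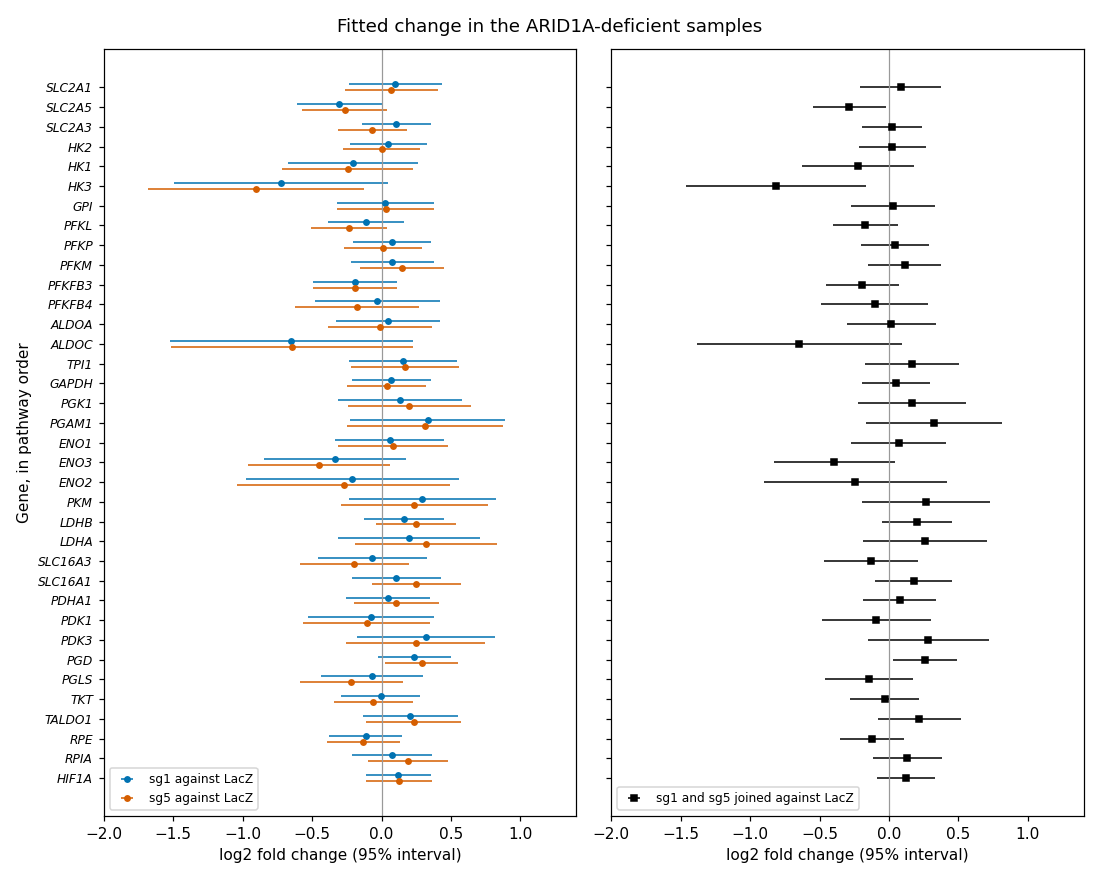
Fitted log2 fold change with its 95% interval for each of the 36 genes, for sg1 and sg5 against LacZ (left) and for both joined (right). Most intervals cross 0, and those of HK3, SLC2A5 and PGD in the joined comparison do not, at adjusted p-values of 0.577, 0.661 and 0.634 by edgeR.

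In normalised CPM, 3 of the 36 genes had all 4 ARID1A-deficient samples above both LacZ samples, where 9.72% of all genes tested did, and 4 had them below, where 10.4% did. The 3 higher genes were PGD, LDHB and HIF1A, and the 4 lower genes were HK3, SLC2A5, PFKFB3 and RPE. None passed the test, and both counts lay near the share of all genes.

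PGD, of the oxidative branch, had 263 and 257 CPM with the LacZ guide, 323 and 290 with sg1 and 309 and 327 with sg5. The log2 fold change of PGD was 0.23 for sg1 (SE 0.12), 0.29 for sg5 (SE 0.12) and 0.26 in the joined comparison (95% interval 0.03 to 0.49, adjusted p 0.634 by edgeR). PGLS, the 6-phosphogluconolactonase of the same branch, lay at 88.5 and 93.1 TPM with the LacZ guide, 80.8 and 87.6 with sg1 and 90.5 and 62.0 with sg5. The groups overlapped for PGLS, with the lowest value in sg5 replicate 2.

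LDHB had 2460 and 2490 CPM in LacZ, against 2893 and 2649 for sg1 and 2784 and 3089 for sg5, with a joined log2 fold change of 0.20 (SE 0.11, adjusted p 0.742 by edgeR). HIF1A had 70.6 and 71.1 CPM with the LacZ guide, 78.2 and 76.0 with sg1 and 75.7 and 78.8 with sg5, a joined log2 fold change of 0.12 (SE 0.09, adjusted p 0.773 by edgeR). For HIF1A the groups overlapped in TPM.

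HK3, a hexokinase known from granulocytes, had the estimate farthest from 0, at 4.75 and 3.67 CPM in LacZ, against 3.06 and 2.03 for sg1 and 2.88 and 1.62 for sg5. These values rest on 250 and 185 estimated counts in LacZ and on 82 to 155 in the ARID1A-deficient samples. The log2 fold change of HK3 was -0.72 for sg1 (SE 0.34), -0.91 for sg5 (SE 0.34) and -0.81 in the joined comparison (SE 0.29, adjusted p 0.577 by edgeR). With an offset for transcript length, the estimates for HK3 were -0.31 in sg5 and -0.44 in the joined comparison (adjusted p 0.876 and 0.802 by edgeR). In TPM its groups overlapped, with 2.38 and 1.98 with the LacZ guide, 1.59 and 1.26 with sg1 and 2.47 and 0.988 with sg5. HK1, the hexokinase of most tissues, had 2.89 to 3.83 TPM in LacZ and 2.26 to 2.91 in the ARID1A-deficient samples, which overlapped.

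SLC2A5 had 39.9 and 37.4 CPM in LacZ, against 28.98 and 33.7 for sg1 and 30.0 and 34.3 for sg5. Its joined log2 fold change was -0.28 (95% interval -0.55 to -0.02, adjusted p 0.661 by edgeR), and its groups did not overlap in TPM either. PFKFB3 had 40.9 and 40.9 CPM with the LacZ guide, 37.0 and 34.6 with sg1 and 39.5 and 32.2 with sg5 (joined log2 fold change -0.19, SE 0.11, adjusted p 0.747 by edgeR). RPE had 74.4 and 78.5 CPM in LacZ, against 67.7 and 73.5 for sg1 and 65.6 and 74.0 for sg5 (joined log2 fold change -0.12, SE 0.10, adjusted p 0.789 by edgeR). In PFKFB3 and RPE the nearest ARID1A-deficient sample came close to LacZ.

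**Figure D4:**
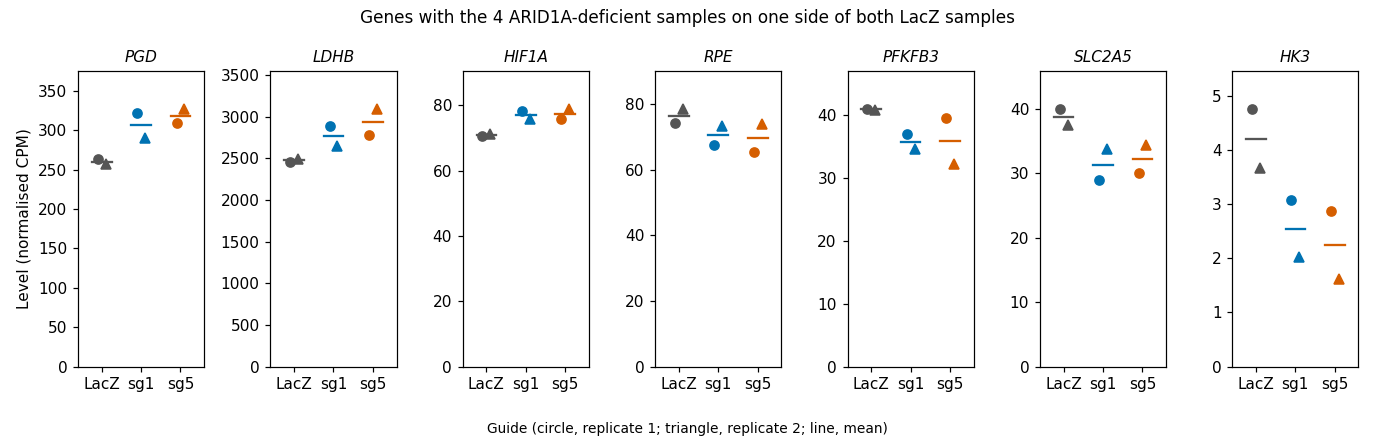
Normalised CPM of the 7 genes whose 4 ARID1A-deficient samples lie on one side of both LacZ samples, with axes from 0, 1 point per sample and a line at the mean of each group of 2. PGD, LDHB and HIF1A lie above LacZ and the other 4 genes below, and the span within each guide is a large part of the distance for HK3, PFKFB3 and RPE.

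Several genes of later glycolysis differed between the replicates of each guide. The 7 genes ALDOA, TPI1, PGK1, PGAM1, ENO1, PKM and LDHA were each more than 0.3 higher, in log2 CPM, in sg1 replicate 1 than in sg1 replicate 2 and in sg5 replicate 2 than in sg5 replicate 1. This was so for 6.78% of all genes tested. The same pair of samples lay apart from the other 4 on the first principal component, and the 7 genes were picked out after their values were seen. The difference was 0.69 and 0.55 for PGAM1, 0.61 and 0.57 for PKM, and 0.50 and 0.63 for LDHA, in sg1 and sg5 respectively. For LDHA this meant 1041 against 758 TPM in sg1 and 1151 against 784 TPM in sg5, beside 827 and 761 in LacZ. GAPDH, in the middle of the same pathway, differed by 0.16 and 0.004. The set of genes depends on the cut of 0.3 and does not follow the order of the pathway. GPI, of an early step, differed by 0.299 and 0.339, and LDHB, of the same step as LDHA, by 0.127 and 0.150.

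Over all 36 genes, 23 were higher in both of these samples than in the other replicate of their guide and 4 were lower in both, whereas 30.3% and 34.0% of all genes tested were. The 4 lower genes were PFKL, PDK1, PGLS and ENO3, the muscle-type enolase. PDK1 lay at 9.29 against 10.3 TPM in sg1 and 8.23 against 12.9 in sg5. ENO3 lay at 22.8 against 29.5 TPM in sg1 and 22.7 against 26.7 in sg5, beside 32.4 and 37.0 in LacZ. HK3 went in opposite directions, 0.59 higher in sg1 replicate 1 and 0.81 lower in sg5 replicate 2.

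All 15 of 15 proliferation markers were also higher in both samples. Their summed level was 3367 against 2807 TPM in sg1 and 3455 against 2852 TPM in sg5, beside 2760 and 2759 in LacZ. Against LacZ, all 15 had estimates above 0 in sg1, in sg5 and joined, with medians of 0.18, 0.23 and 0.23. In the joined comparison 48.7% of all genes tested were above 0. All 4 ARID1A-deficient samples lay above both LacZ samples in 6 of the 15, where 9.72% of all genes tested did. No marker passed an FDR of 0.1 by edgeR in any comparison. Of 18 targets of HIF outside glycolysis, 16 passed the filter. Of these, 2 were higher in both samples and 9 lower in both, where 30.3% and 34.0% of all genes tested were. The median difference of the 16 in log2 CPM was -0.09 in sg1 and -0.12 in sg5. VEGFA, the angiogenic growth factor, lay at 65.2 against 126 TPM in sg1 and 55.1 against 117 TPM in sg5, beside 145 and 147 in LacZ. The part of proliferation, or of any other property of these samples, in the levels of the glycolytic genes was not tested.

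**Figure D5:**
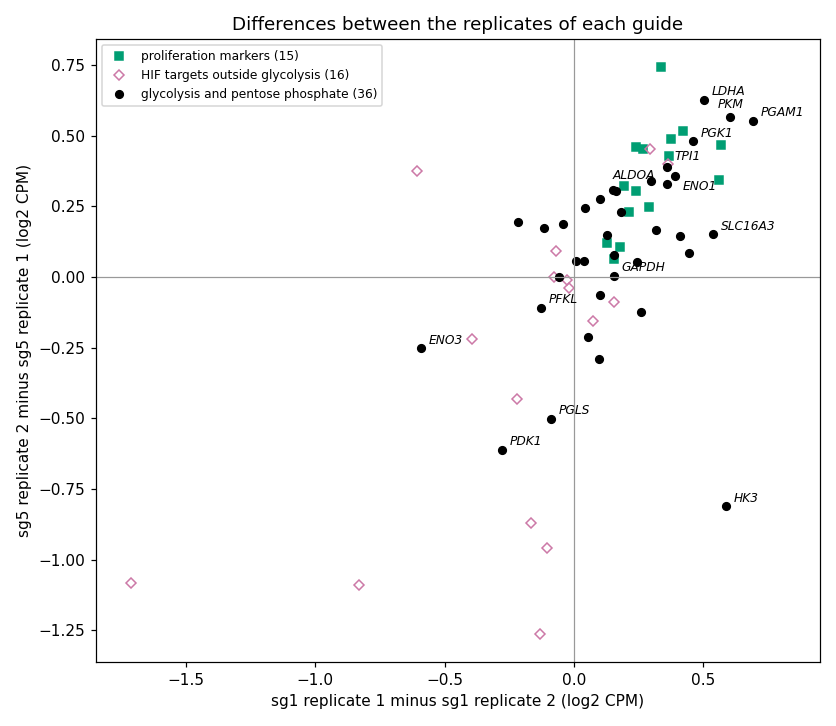
Difference between the replicates of each guide in log2 CPM, for sg1 (horizontal axis) and sg5 (vertical axis), with the 36 genes, 15 proliferation markers and 16 HIF targets. Genes of later glycolysis such as PGAM1, PKM and LDHA and all 15 proliferation markers lie to the upper right, whereas 9 HIF targets and 4 of the 36 genes lie to the lower left.

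Without sg1 replicate 1 and sg5 replicate 2, so that each guide was left with 1 sample that was taken to vary as LacZ does, the joined estimates of several later genes changed sign. PGAM1 went from 0.32 to -0.02, PKM from 0.26 to -0.06, ENO1 from 0.07 to -0.13, PGK1 from 0.17 to -0.09 and TPI1 from 0.16 to -0.04. In this fit 2 of the 36 genes passed an FDR of 0.1, where 4.22% of all genes tested did. These were SLC16A3 at -0.32 (adjusted p 0.0179 by edgeR) and HK3 at -0.80 (adjusted p 0.0209 by edgeR), both lower than LacZ. For SLC16A3 the 2 samples left out, sg1 replicate 1 at 391 CPM and sg5 replicate 2 at 317 CPM, lay nearer to LacZ at 341 and 350 CPM than the 2 kept, at 269 and 286 CPM.

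Promoter windows of the 36 genes were taken from 250 bases before to 50 bases after a start of transcription. They were searched on both strands for ACGTG and GCGTG, the core letters of the hypoxia response element. CACGTG, the E-box known to bind MYC, holds ACGTG on each strand, so that each CACGTG counts as 2 matches of the core. It was also counted alone. RefSeq (GRCh38.p14) gave windows for 34 of the 36 genes, 62 in all. Of these, 38 (61.3%) held ACGTG or GCGTG, where 48.5% of all 35116 windows did, and 6 (9.68%) held CACGTG, where 7.26% did. The median G and C content was 68.0% in the 62 windows and 58.7% in all. By gene, 28 of the 34 had a window with the core, where 52.4% of all 27305 genes did. These shares by gene are not on an equal footing, since the 34 genes had more windows per gene than all genes did. Of the 7 genes that differed between replicates, 6 (85.7%) had a window with the core, and PGAM1 had none. That share lay near the 82.4% of the 34 genes, of which the 7 are a part. It therefore marks no trait of the 7 genes, which were picked by their values. The windows of LDHA, with 6 matches of the core and 2 of CACGTG, and of PGK1, with 4 matches of the core, are shown because they hold the most matches among the 7 genes. They lie on the plus strand at chr11:18394313-18394612 and chrX:78103998-78104297, and capitals mark the core on either strand:
LDHA promoter: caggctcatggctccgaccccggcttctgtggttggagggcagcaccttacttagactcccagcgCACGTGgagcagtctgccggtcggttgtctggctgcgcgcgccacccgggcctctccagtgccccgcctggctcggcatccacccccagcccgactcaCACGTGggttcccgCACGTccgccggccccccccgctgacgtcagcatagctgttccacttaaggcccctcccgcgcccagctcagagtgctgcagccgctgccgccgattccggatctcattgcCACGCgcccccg
PGK1 promoter: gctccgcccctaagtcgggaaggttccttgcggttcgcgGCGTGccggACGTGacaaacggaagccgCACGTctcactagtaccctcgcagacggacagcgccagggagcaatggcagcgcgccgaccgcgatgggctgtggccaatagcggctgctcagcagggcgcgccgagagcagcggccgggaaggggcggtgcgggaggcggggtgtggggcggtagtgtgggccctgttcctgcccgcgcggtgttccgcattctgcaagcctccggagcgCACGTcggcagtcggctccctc

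LDHA and PGK1 differed from LacZ by 0.26 (SE 0.20) and 0.17 (SE 0.17) in the joined comparison, with adjusted p-values of 0.779 and 0.824 by edgeR. Both estimates rest on sg1 replicate 1 and sg5 replicate 2. In sg1 replicate 2 and sg5 replicate 1, LDHA lay at 695 and 717 CPM, beside 750 and 712 in LacZ. PGK1 lay at 250 and 259 CPM in these samples, beside 283 and 259 in LacZ. The match of letters is a description of the windows and not of binding in these cells.

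In LacZ itself, 2 of the 36 genes were more than 1 higher in log2 CPM in replicate 1 than in replicate 2, as were 2.49% of all genes tested. ALDOC, the brain-type aldolase, lay at 48.0 and 21.7 TPM with the LacZ guide, 21.6 and 22.3 with sg1 and 21.4 and 22.7 with sg5. ENO2, the neuronal enolase, lay at 6.19 and 2.48 TPM in LacZ, against 3.20 and 3.33 for sg1 and 2.98 and 3.28 for sg5. For both genes LacZ replicate 1 was far above all other samples. LacZ replicate 2 lay within the range of the ARID1A-deficient samples for ALDOC and below all of them for ENO2. The joined log2 fold change of ALDOC was -0.65 (SE 0.31, adjusted p 0.740 by edgeR).

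A fit of the same test with no low-count filter called ALDOC in sg1 (adjusted p 0.00703), in sg5 (adjusted p 0.00588) and in the joined comparison (adjusted p 0.000228), all by edgeR, and HK3 in the joined comparison (adjusted p 0.0715 by edgeR). In that fit 1.05%, 1.92% and 2.13% of all genes with any count passed. The estimates for ALDOC were -0.66, -0.65 and -0.65, and the cause of the lower p-values was not tested.

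The wider pathway was then examined in 67 further genes, of which 46 passed the filter and 3 had no counts in any sample. None passed an FDR of 0.1 by edgeR in any comparison, with 2 at an unadjusted p under 0.05 in sg1, 2 in sg5 and 2 in the joined comparison. The shares of all genes tested were 4.15%, 7.47% and 7.21%. Their median log2 fold change was 0.09 in sg1, 0.12 in sg5 and 0.11 in the joined comparison, with 34 of the 46 above 0 in the last, where 48.7% of all genes tested were. In 9 of them all 4 ARID1A-deficient samples lay above both LacZ samples, where 9.72% of all genes tested did, and in 2 they lay below, where 10.4% did. FBP1, the gluconeogenic fructose bisphosphatase that runs against phosphofructokinase, lay at 6.51 and 5.05 TPM with the LacZ guide, 11.002 and 9.78 with sg1 and 13.8 and 8.79 with sg5. Its joined log2 fold change was 0.93, with an adjusted p of 0.276 by edgeR. TIGAR, which lowers fructose 2,6-bisphosphate, lay at 7.44 and 7.03 TPM in LacZ, against 10.4 and 7.16 for sg1 and 8.22 and 11.6 for sg5, with a joined log2 fold change of 0.49 and an adjusted p of 0.712 by edgeR. SLC2A9, a urate and hexose transporter, was one of the 2 genes below LacZ, at 6.80 and 5.27 TPM against 3.02 to 4.86 TPM (adjusted p 0.514 by edgeR).

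None of the 16 HIF targets outside glycolysis passed an FDR of 0.1 by edgeR in any comparison. In the joined one 2 had an unadjusted p under 0.05, beside 7.21% of all genes tested. Of these targets 5 had all ARID1A-deficient samples below both LacZ samples, where 10.4% of all genes tested did, and 1 had them above, where 9.72% did. P4HA1, a collagen prolyl hydroxylase, was among the 5, at 27.3 and 20.4 TPM in LacZ and 16.8 to 20.04 TPM in the ARID1A-deficient samples (joined log2 fold change -0.33, adjusted p 0.639 by edgeR). The 12 regulators of glycolytic genes all passed the filter, and none passed the test. In the joined comparison 1 had an unadjusted p under 0.05 by edgeR, beside 7.21% of all genes tested. TXNIP, a glucose-induced brake on glucose uptake, lay at 15.8 and 15.9 TPM with the LacZ guide, 7.76 and 16.1 with sg1 and 11.6 and 7.65 with sg5, and so was lowest in sg1 replicate 1 and sg5 replicate 2. MYC, which is known to induce LDHA and ENO1, lay at 514 and 577 TPM in LacZ, against 425 and 534 for sg1 and 457 and 460 for sg5, with a joined log2 fold change of -0.19 and an adjusted p of 0.761 by edgeR.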

How the data were processed

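RNA from 6 NB4 samples (LacZ, sg1 and sg5, 2 each) had been prepared with a TruSeq RNA kit and sequenced in paired-end mode by the authors. Per the labels, Kallisto and DESeq2 were used and hg19 is among the builds, and the human transcript set is not given in the sources used here, which state a version of Kallisto only for an alignment to a murine transcriptome. The deposited tables held estimated counts per transcript, in which the authors' quantifier divides reads shared between transcripts, and TPM, which the authors' quantifier corrects for effective transcript length. Of 196354 transcripts, 181857 (92.6%) matched GENCODE 29 (GRCh38) by identifier, with 95.4% to 95.5% of counts. Unmatched transcripts were left out. Matched values were summed to 52992 genes and the counts rounded. TPM summed per gene was not rescaled.

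Genes with enough counts (filterByExpr, minimum count 10) were tested with edgeR 4.0.16 in R 4.3.3, using TMM factors and the robust quasi-likelihood test. All 6 samples entered 1 model with group as its term, and the joined comparison set the mean of sg1 and sg5 against LacZ. Adjustment followed the Benjamini-Hochberg procedure over all 18514 genes, at an FDR of 0.1, the threshold of the study. Differences between replicates are in log2 CPM with a prior count of 2. The common biological coefficient of variation was 16.6%.

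The 36 genes and the other lists were chosen with earlier results of these data known, and no list was tested as a set. Values in every sample are given for the gene with the highest mean TPM of each step, for up to 5 genes in each direction with all ARID1A-deficient samples on one side of LacZ in CPM, for HIF1A, and for isozymes where shares needed them. ALDOC, ENO2, ENO3, PDK1, PGLS, HK1, VEGFA, MYC and other examples were named after their values were seen. PKM transcripts were sorted by exon 9 and exon 10 from their annotated coordinates. DESeq2 1.42.0, its size factors, no filter, a replicate block, a length offset, counts of pseudogenes added, an FDR of 0.05 and each replicate left out were tried as alternatives, and the fitting functions were tested on simulated data. Plots were drawn with matplotlib 3.10.9.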

Additional observations from a re-analysis of the deposited data

How the results depend on the processing

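In each of the 4 comparisons, the count of the 36 genes called stayed at 0 with DESeq2, its size factors, a transcript length offset, counts of pseudogenes added, an FDR of 0.05 and each of the 6 replicates left out. Without a low-count filter it was 1 in sg1, 1 in sg5 and 2 in the joined comparison, and without sg1 replicate 1 and sg5 replicate 2 it was 2 in the joined comparison. The replicate numbers were not taken to pair the samples, since deviations of same-numbered samples correlated at 0.07 between LacZ and sg1, 0.01 between LacZ and sg5 and -0.21 between sg1 and sg5 across 18514 genes. With the replicate number as a replicate block the counts were 0, 0, 0 and 0, with 1, 1, 2 and 0 at an unadjusted p under 0.05. With the numbers of sg5 crossed, an alternative chosen after the data were seen, they were 0, 0, 0 and 0.

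The sign of several joined log2 fold changes depended on the samples. Without sg1 replicate 1 and sg5 replicate 2 they were -0.037 for SLC2A1, -0.14 for GPI, -0.166 for ALDOA, -0.037 for TPI1, -0.089 for PGK1, -0.022 for PGAM1, -0.129 for ENO1, -0.058 for PKM, -0.045 for PDHA1 and 0.005 for TKT. With a length offset GPI was at -0.002. With 1 replicate left out, the range was -0.037 to 0.230 for SLC2A1, -0.085 to 0.150 for HK2, -0.067 to 0.116 for GPI, -0.075 to 0.114 for ALDOA, -0.031 to 0.173 for ENO1, -0.275 to 0.002 for SLC16A3, -0.010 to 0.157 for PDHA1 and -0.079 to 0.014 for TKT. No adjusted p in these fits was below 0.1 by edgeR except for SLC16A3 and HK3 as given above. The cause of these changes was not tested. Mean shares of a step also moved with the scale. From estimated counts, in place of TPM, PDHA1 went from 94.3% to 80.5%, SLC2A5 from 35.7% to 21.7%, SLC16A3 from 77.9% to 65.1% and PFKL from 55.5% to 62.6%. With protein-coding transcripts alone PFKL was at 49.2%. With 2 samples per group, the median distance from estimate to end of the 95% interval was 0.30 in log2 in the joined comparison. A change well under that size in a single gene was not detectable here. Larger changes could also go uncalled, because the interval is not adjusted for the number of genes tested. HK3 at -0.81 and ALDOC at -0.65 did not pass an FDR of 0.1 by edgeR in the joined comparison.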
